A study of Mus musculus with 10 samples.

Results

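The NRF2 pathway and the enzymes of glutathione, thioredoxin and peroxide metabolism were followed in mouse cardiomyocytes that expressed dnMKL1, which is a dominant-negative MKL1. MKL1 (MRTF-A) is a coactivator of serum response factor. The set held 53 genes of the 23337 in the authors' deposited table: NRF2 and its inhibitor KEAP1, NRF2 targets, glutathione and thioredoxin enzymes, phase II detoxification enzymes, enzymes that supply NADPH, and enzymes that remove superoxide and peroxides. It was assembled by function after Ephx1 and Hmox1 had been seen to rise in this same comparison, so the values of all members are a description, with no test of the set. The samples were cardiomyocytes of wild-type mice, 5 libraries with dnMKL1 and 5 with GFP alone. Per the labels, AAV9 virus carrying dnMKL1 with GFP, or GFP alone as the control, was given on postnatal day 1 at 5e+08 viral genomes per gram, and sorted cells were collected at postnatal day 14. Both viruses used the promoter of cardiac troponin T, a gene of cardiomyocytes, so both groups carried AAV9 and GFP. The gate of the sort is not given in the sources used here. The question for these genes is how their transcripts differ with dnMKL1 from the GFP control.

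NRF2, encoded by Nfe2l2, is a transcription factor that KEAP1 holds in the cytosol and delivers to degradation. Oxidants and electrophiles modify KEAP1, NRF2 then enters the nucleus, pairs with a small MAF protein and binds the antioxidant response element in front of genes for glutathione synthesis, detoxification and NADPH supply. In heart muscle, where mitochondria are dense and respire constantly, superoxide is removed in the mitochondrial matrix by manganese superoxide dismutase, and the peroxide it yields by peroxiredoxin 3 with thioredoxin 2.

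The authors' deposited table gave a log2 fold change of 9.80 (SE 0.15) for Mkl1, from which the direction of all values was read, positive meaning higher with dnMKL1. Estimated totals ran from 8803005 to 17228537 counts per library. The table holds base means, the average normalized count over all libraries, and fold changes with standard errors, and no value per library. Group values are therefore given as means implied by the base mean and the fold change, and the spread between libraries enters through the SE, from which 95% intervals were computed. The series' design text calls the libraries biological replicates without naming their source, and p-values measure the spread between them. Cardiomyocyte markers were abundant, with a base mean of 594986 for Myh6 in the authors' deposited table. In such bulk libraries fewer cells of a type and less RNA per cell cannot be told apart. The summed implied means were lower with dnMKL1, so that scaling both groups to the same total (total-count scaling) adds 0.29 to every log2 fold change. Abundant genes weigh most in these sums, which were 13330300 with GFP and 10915800 with dnMKL1. Within them 16 sarcomere genes went from 1965520 to 1130260 and 22 electron transport genes from 692878 to 420283. The median log2 fold change of genes at a base mean of 10 or more was 0.0041. Which scaling is nearer the truth cannot be told from the table. Values below are on the authors' scaling. Members whose direction or call is lost under total-count scaling are named, and for other lists the counts under it are given. Calls under it rest on the shifted value and the unchanged deposited SE, with the Wald p-value and its adjustment recomputed. The shift was taken as a constant without error, and no library was rescaled or refitted.

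By the authors' adjusted p-value under 0.05, 18 members were higher with dnMKL1, 13 were lower and 21 were not called, while Gsta3 had no adjusted p-value. Over all 14056 genes with an adjusted p-value 34.1% were called, 16.6% higher and 17.4% lower. Since the rule used this contrast, nothing is read from the difference. The median log2 fold change was 0.0022 over the 52 tested members and 0.021 over all tested genes. Changes of at least 2-fold were found among the rises only, in 8 members (Ephx1, Hmox1, Osgin1, Ptgr1, G6pdx, Gpx3, Sod3 and Mgst1). Among all genes with an adjusted p-value 4.65% rose and 2.05% fell by that much. With total-count scaling all 18 rises were kept, 8 of the 13 falls were kept, and 31 members were higher and 8 lower, against 40.4% and 6.6% of all genes.

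**Figure D1:**
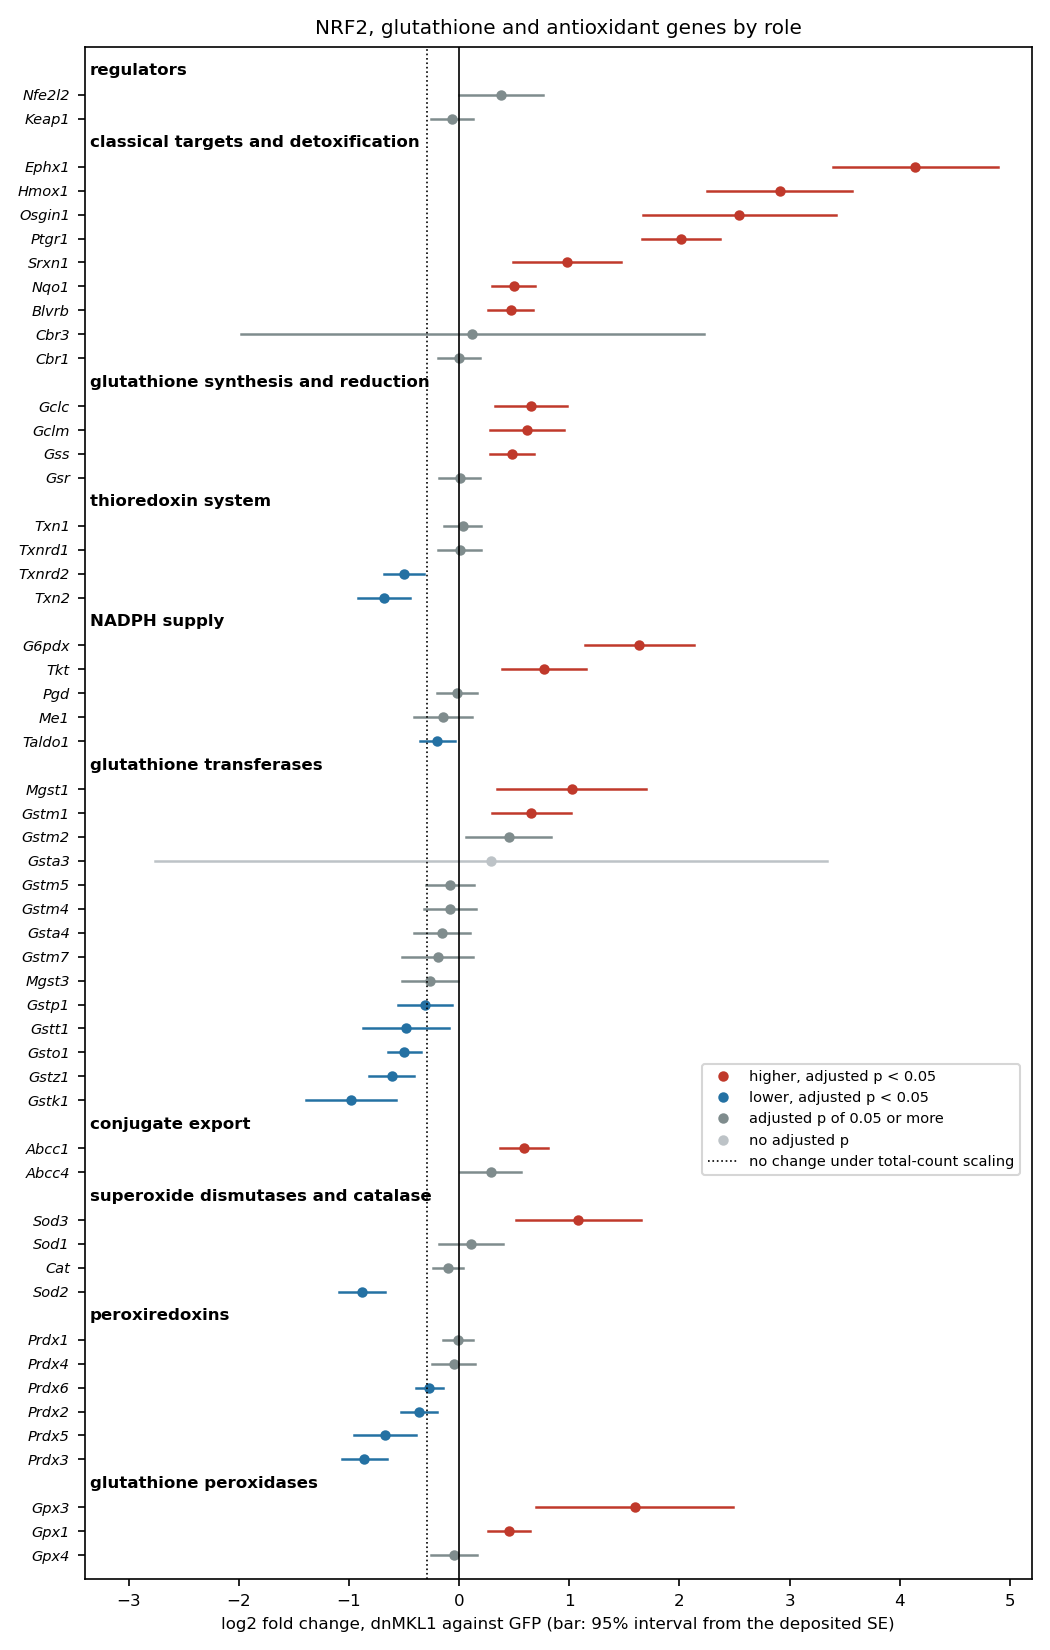
Each point is the log2 fold change of 1 member, dnMKL1 against GFP, with its 95% interval from the deposited SE as a bar, grouped by role. The plot shows 18 members higher and 13 lower, with Ephx1 farthest right at 4.14, and the dotted line marks no change under total-count scaling, where 31 were higher and 8 lower.

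Neither regulator was called on the authors' scaling. The authors' deposited table gave a log2 fold change of 0.38 (SE 0.19) for Nfe2l2, with a Benjamini-Hochberg adjusted Wald p of 0.123, and implied means of 1024 normalized counts with GFP and 1331 with dnMKL1 were computed from it. Its interval ran from 0.998-fold to 1.69-fold, and under total-count scaling Nfe2l2 was higher (0.67, adjusted Wald p of 0.00206). Keap1 had -0.06 (SE 0.10) in the authors' deposited table, with implied means of 1102 and 1056, and under total-count scaling it was called higher at 0.23. NRF2 is controlled chiefly through its stability, and protein was not measured.

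The 9 members grouped as classical targets and detoxification held the largest rises. Genes for glutathione synthesis and NADPH supply, which NRF2 also controls, are grouped in other roles below, and not all of them rose. The authors' deposited table gave a log2 fold change of 4.14 (SE 0.38) for Ephx1, microsomal epoxide hydrolase, which opens reactive epoxides. Its implied mean went from 86.4 normalized counts with GFP to 1525 with dnMKL1, a 17.7-fold rise with an interval from 10.5-fold to 29.7-fold. Hmox1, the inducible heme oxygenase that breaks heme into biliverdin, iron and carbon monoxide, went from 29.4 to 221, with a log2 fold change of 2.91 (SE 0.34) in the authors' deposited table. These are the genes whose rise led to the choice of the set. Ephx1 lies on chr1:180976210-181020904 and Hmox1 on chr8:75093621-75100589 (GRCm38, the build that mm10 names, GENCODE M21).

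The other members of that role come from the same comparison, and members and roles were chosen with earlier results of these data known. Their values are therefore descriptions too. Osgin1, a growth inhibitor induced by oxidative stress (chr8:119434124-119446256), had implied means of 10.3 and 59.8, and the authors' deposited table gave 2.54 (SE 0.45). Ptgr1, a reductase of prostaglandins and reactive alkenals (chr4:58965439-58987119), went from 39.9 to 161, with 2.01 (SE 0.18) in the authors' deposited table. Both rose from low levels with GFP. Srxn1, sulfiredoxin, which repairs over-oxidised peroxiredoxins, went from 351 to 691 (0.98, SE 0.25, in the authors' deposited table). Smaller rises in the authors' deposited table were those of the quinone reductase Nqo1, from 462 to 652 (0.50, SE 0.10), and the flavin and biliverdin reductase Blvrb, from 156 to 215 (0.47, SE 0.11). Of the carbonyl reductases, Cbr1 had 0.00 (SE 0.10) in the authors' deposited table, an interval from -0.19 to 0.19 and a call as higher at 0.29 under total-count scaling, and Cbr3 was near the limit of detection, with a base mean of 1.70. Nqo1, a widely used readout of NRF2, thus differed by 1.41-fold where Ephx1, Hmox1, Osgin1 and Ptgr1 differed by 4.03-fold or more.

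**Figure D2:**
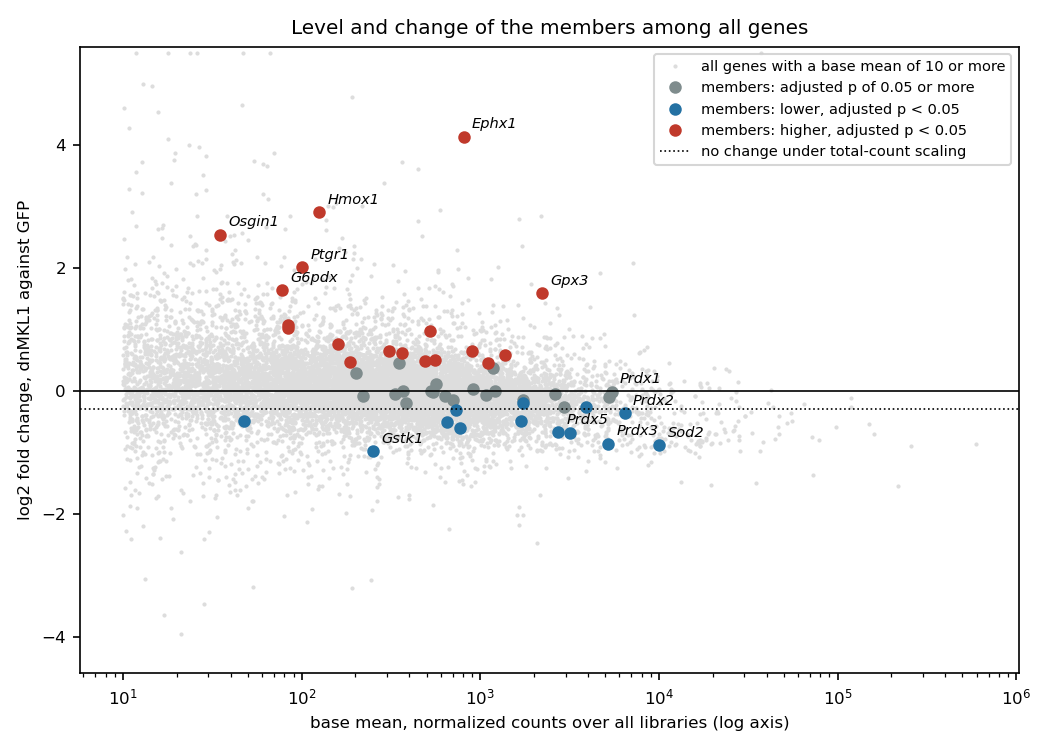
Each point is a gene, with its base mean in normalized counts on the horizontal log axis and its log2 fold change, dnMKL1 against GFP, on the vertical axis. Members are coloured by call over 11922 genes in grey, 7 of which lie above the plotted range and are drawn at its edge, and the members with the largest rises lie at base means well below those of Sod2, Prdx2 and Prdx3.

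The antioxidant response element was looked for in the RefSeq promoter windows (GRCm38.p6), which run from 250 bases before to 50 after each annotated start, as TGACNNNGC on either strand. Of the 53 members 46 were in the table, and Hmox1, Gclc, Gsr, Gsta4, Abcc1, Sod3 and Prdx6 were not. A match was found in 14 of the 46 members (30.4%) and in 14.0% of the 27025 genes of the table. By call, it was present in 4 of 14 members that were higher, in 0 of 12 that were lower and in 9 of 19 that were not called. A match is a description of letters and not a site, and elements farther away lie outside the window. The windows of the 4 higher members and of 5 members without a call are shown with the match in capitals and 10 bases on either side, 5′ to 3′ on the gene's own strand, and matches that end in GTCA are the motif on the opposite strand. The other members with a match were Gstm5, Gstm7, Pgd and Sod1, without a call, and Gsta3.
G6pdx: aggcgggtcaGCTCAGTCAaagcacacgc
Gclm: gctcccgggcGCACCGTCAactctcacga
Mgst1: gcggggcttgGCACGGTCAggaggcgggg
Srxn1: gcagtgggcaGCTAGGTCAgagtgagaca
Me1: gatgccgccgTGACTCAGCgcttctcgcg
Prdx1: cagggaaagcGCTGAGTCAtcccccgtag
Txnrd1: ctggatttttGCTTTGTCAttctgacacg
Abcc4: aataatctcgTGACTCTGCcgtggtggat
Nfe2l2: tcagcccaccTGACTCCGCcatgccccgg
The windows lie at chrX:74428919-74428947 (minus strand) for G6pdx, chr3:122245413-122245441 (plus) for Gclm, chr6:138140461-138140489 (plus) for Mgst1 and chr2:152105542-152105570 (plus) for Srxn1, the last inside the transcribed part. Those of the members without a call lie at chr9:86695902-86695930 (minus) for Me1, chr4:116685456-116685484 (plus) for Prdx1, chr10:82859104-82859132 (plus) for Txnrd1, chr14:118676936-118676964 (minus, a second start of the gene) for Abcc4 and chr2:75704885-75704913 (minus) for Nfe2l2. Abcc4 has a further match, not shown, at its first annotated start. Relative to the RefSeq start of its own window, the match of Me1 spans the start, and the other matches shown, apart from Srxn1, lie upstream of it. By the GENCODE bounds, the matches of G6pdx, Mgst1, Txnrd1 and Abcc4 lie within their genes, upstream of a start inside those bounds.

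Transcripts for each step of glutathione synthesis were higher with dnMKL1. The rate-limiting step is carried out by glutamate-cysteine ligase, with Gclc as the catalytic and Gclm as the modifier subunit, and glutathione synthetase, Gss, completes the molecule. Gclc went from an implied mean of 238 normalized counts with GFP to 374 with dnMKL1, with a log2 fold change of 0.65 (SE 0.17) in the authors' deposited table. Gclm, whose window is shown above, went from 289 to 442 (0.62, SE 0.17, in the authors' deposited table) and Gss from 407 to 567 (0.48, SE 0.10, in the authors' deposited table). The intervals of the 3 genes overlap, from 0.28 at the lowest to 0.98 at the highest. Part of the Gss exons overlaps Acss2 on the other strand, and Acss2 had 0.04 (SE 0.09) in the authors' deposited table. Gsr, the reductase that recycles oxidised glutathione with NADPH, had 0.00 (SE 0.10) in the authors' deposited table, with implied means of 531 and 533 and an interval from -0.18 to 0.19. Under total-count scaling Gsr was called higher, at 0.29.

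Transcripts of the enzymes that supply NADPH changed unevenly. G6pdx, which opens the pentose phosphate pathway (chrX:74409483-74429194), went from an implied mean of 37.6 normalized counts to 117, with a log2 fold change of 1.64 (SE 0.25) in the authors' deposited table. Tkt, transketolase of the non-oxidative branch, went from 117 to 200 (0.77, SE 0.20, in the authors' deposited table). Pgd, the next oxidative step after the lactonase, had -0.02 (SE 0.09) in the authors' deposited table and was called higher, at 0.27, under total-count scaling. The cytosolic malic enzyme Me1 had -0.14 (SE 0.13) in the authors' deposited table. Taldo1, transaldolase, was just inside the threshold on the low side, with -0.20 (SE 0.08) in the authors' deposited table and an adjusted Wald p of 0.0427, and under total-count scaling it lay at 0.09 and was not called. So G6pdx rose 3.11-fold, while the interval for Pgd, also of the oxidative branch, ran from 0.869-fold to 1.12-fold. Of the 50-base stretches of the G6pdx transcript, 10.7% also occur in another gene, either its retrogene G6pd2, listed at 0, or Ikbkg on the other strand, for which the authors' deposited table gave -0.10 (SE 0.08). For Me1 this share was 32.8%, chiefly in pseudogenes, so its value is uncertain.

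Of 14 glutathione transferases, which attach glutathione to electrophiles, 13 had an adjusted p-value. Of these, 2 rose and 5 fell on the authors' scaling, against 16.6% and 17.4% of all genes. Under total-count scaling 3 were higher and 3 lower, against 40.4% and 6.6% of all genes. Mgst1, a membrane-bound microsomal enzyme, went from an implied mean of 55.2 normalized counts to 112 (1.02, SE 0.35, in the authors' deposited table). Gstm1, of the mu class, went from 695 to 1094 (0.66, SE 0.18, in the authors' deposited table). The 5 mu-class members lie within 149.1 kb on chromosome 3 and did not move alike. Gstm2 had 0.45 (SE 0.20) in the authors' deposited table and an adjusted Wald p of 0.0634, and was called higher under total-count scaling, while Gstm4, Gstm5 and Gstm7 lay between -0.20 and -0.08 with intervals that include 0, and were not called under that scaling either. Gstm1 shares 23.1% of its 50-base stretches with other genes, chiefly a pseudogene of Gstm2, so its reads are not fully its own.

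The transferases that fell were Gstk1, Gstz1, Gsto1, Gstt1 and Gstp1. Gstk1, the kappa enzyme of mitochondria and peroxisomes, went from an implied mean of 331 normalized counts to 168, with -0.98 (SE 0.21) in the authors' deposited table. Gstz1, which acts as maleylacetoacetate isomerase in tyrosine breakdown, went from 933 to 611 (-0.61, SE 0.10, in the authors' deposited table), and the omega enzyme Gsto1 from 1971 to 1397 (-0.50, SE 0.08). These 3 were also lower under total-count scaling. Gstt1, a theta-class enzyme, had implied means of 55.7 and 39.9, with -0.48 (SE 0.20) in the authors' deposited table and an adjusted Wald p of 0.0469. Gstp1, of the pi class, had 806 and 650, with -0.31 (SE 0.13) in the authors' deposited table and an adjusted Wald p of 0.0440. Both were just inside the threshold and were not called under total-count scaling, where they lay at -0.19 and -0.02. Gstp1 shares 62.3% of its 50-base stretches with its near-copy Gstp2, which had a base mean of 29.1 in the authors' deposited table, so the split of reads between the copies is uncertain. Mgst3, the transferase with the highest base mean (2942), had -0.26 (SE 0.13) and Gsta4 had -0.16 (SE 0.13) in the authors' deposited table, neither called. Gsta3 had a base mean of 0.615 and is barely detected in these cells. Of the export pumps for glutathione conjugates, Abcc1 rose from an implied mean of 1101 to 1657 (0.59, SE 0.11, in the authors' deposited table) and Abcc4 had 0.29 (SE 0.14), which was called only under total-count scaling.

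Transcripts of the 4 members grouped as enzymes of the mitochondrial matrix fell. This group leaves out members whose products are found in mitochondria and elsewhere. Sod2, manganese superoxide dismutase (chr17:13006846-13040063), was the member with the highest base mean, 10020 normalized counts, and went from an implied mean of 12991 with GFP to 7049 with dnMKL1. The authors' deposited table gave it a log2 fold change of -0.88 (SE 0.11). Prdx3, the peroxiredoxin of the matrix (chr19:60864051-60874556), went from 6675 to 3679 (-0.86, SE 0.11, in the authors' deposited table). Txn2 and Txnrd2, the thioredoxin and the thioredoxin reductase that recharge Prdx3, went from 3923 to 2445 and from 759 to 536, with -0.68 (SE 0.12) and -0.50 (SE 0.09) in the authors' deposited table. All 4 matrix genes were also lower under total-count scaling, from -0.59 for Sod2 to -0.21 for Txnrd2, and Txnrd2 lost its call when Mkl1 was left out of the totals.

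The 4 matrix genes were each paired with a cytosolic counterpart, Sod1, Prdx1, Txn1 or Txnrd1. These counterparts were not called on the authors' scaling, and all 4 were called higher under total-count scaling, at 0.28 to 0.40. Prdx2 and Prdx6, also cytosolic, were not paired. They were lower on the authors' scaling, with -0.36 and -0.27 in the authors' deposited table, and not called under total-count scaling. The authors' deposited table gave 0.11 (SE 0.15) for Sod1, -0.01 (SE 0.07) for Prdx1, 0.03 (SE 0.08) for Txn1 and 0.01 (SE 0.10) for Txnrd1. Prdx1 had implied means of 5463 and 5414, within 1.01-fold of each other, and its interval ran from -0.15 to 0.12. The difference between paired genes does not depend on how the libraries are scaled. It was -0.99 for Sod2 minus Sod1, -0.85 for Prdx3 minus Prdx1, -0.72 for Txn2 minus Txn1 and -0.51 for Txnrd2 minus Txnrd1, on the log2 scale and with no error, since the covariance of genes between libraries is not known from the table. The 22 electron transport genes used for comparison all had negative values, with a median of -0.79 and a range from -1.08 to -0.45, and 22 of 22 were lower. Of all tested genes 17.4% were lower, or 6.6% under total-count scaling. The electron transport genes were abundant, with a lowest base mean of 4005 for Cox5b, and of all tested genes at 1000 or more 42.1% were lower on the authors' scaling. The 4 matrix genes had a median of -0.77, within that range, and no test of the 2 lists against each other was made. Under total-count scaling the electron transport median was -0.50, with 21 of 22 lower (Cox6c lost its call), and that of the matrix genes -0.48. Beside the same shares of all genes, 6 of 8 cardiomyocyte markers were lower, or 5 of 8 under total-count scaling, where Tnni3 lost its call. Their summed implied level was 1738490 normalized counts with GFP and 943509 with dnMKL1. What part the lower markers have in the falls was not tested.

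Peroxiredoxins, which reduce peroxides through a reactive cysteine, were lower in 4 of 6 members and higher in none on the authors' scaling. Of all tested genes 17.4% were lower and 16.6% higher. All peroxiredoxins but Prdx4 had a base mean above 1000, and of all tested genes at 1000 or more 42.1% were lower. Under total-count scaling 2 were lower and 2 higher, against 6.6% and 40.4% of all genes. Prdx5, found in mitochondria, peroxisomes and cytosol, went from an implied mean of 3342 normalized counts to 2092, with -0.68 (SE 0.14) in the authors' deposited table. Its exons partly overlap Trmt112 on the other strand, which had -0.18 (SE 0.15) in the authors' deposited table. The cytosolic Prdx2 and Prdx6 went from 7231 to 5624 and from 4251 to 3526, with -0.36 (SE 0.08) and -0.27 (SE 0.06) in the authors' deposited table, and under total-count scaling neither was called (-0.07 and 0.02). The endoplasmic reticulum member Prdx4 had -0.05 (SE 0.10) in the authors' deposited table, and 0.24 with a call as higher under total-count scaling. Prdx2 shares 23.8% of its 50-base stretches with other genes, among them Junb on the other strand, which rose (0.82, SE 0.20, in the authors' deposited table). Catalase, the peroxisomal enzyme encoded by Cat, had implied means of 5450 and 5085 and -0.10 (SE 0.07) in the authors' deposited table, which was not called on the authors' scaling and was called higher, at 0.19, under total-count scaling.

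Transcripts of the secreted enzymes Gpx3 and Sod3 rose. Gpx3, the plasma glutathione peroxidase (chr11:54902453-54910377), went from an implied mean of 1100 normalized counts to 3324, with a log2 fold change of 1.60 (SE 0.46) in the authors' deposited table. Sod3, extracellular superoxide dismutase, went from 53.7 to 113 (1.08, SE 0.29, in the authors' deposited table). The glutathione peroxidase Gpx1, which was not in the group of matrix genes above, rose from 936 to 1282 (0.45, SE 0.10, in the authors' deposited table). Gpx4, which reduces lipid peroxides in membranes, had -0.05 (SE 0.11) in the authors' deposited table, and 61.7% of its 50-base stretches occur in a pseudogene, so its value is uncertain. Beside these rises 12 of 12 fibroblast markers had positive values. Of them 5 were called higher (Col1a1, Col1a2, Col3a1, Gsn and Fbln1), or 8 under total-count scaling, against 16.6% and 40.4% of all genes. None was at 0, and their summed implied level was 5228 normalized counts with GFP and 8877 with dnMKL1. The most abundant were Col3a1, Gsn and Fbln1, with 0.44 (SE 0.15), 1.15 (SE 0.10) and 1.38 (SE 0.16) in the authors' deposited table. Gsn went from 876 to 1951 and Fbln1 from 748 to 1944, which is most of the rise in the sum. The markers not called on the authors' scaling ran from 0.02 (SE 0.24) for Mfap5 to 0.79 (SE 0.52) for Tcf21. Among them, Pdgfra had 0.06 (SE 0.25) and Dcn 0.27 (SE 0.16) in the authors' deposited table. The part of fibroblast RNA in the values of Gpx3, Sod3, Mgst1 and Gstm1 was not tested. Endothelial markers had summed levels of 3916 and 4081, with 0 of 12 called, against 34.1% of all genes. Of these markers 0 had an unadjusted Wald p-value under 0.05 in the authors' table, the single tool at hand. Their SEs were large, from 0.25 for Flt1 to 0.49 for Egfl7 in the authors' deposited table, so moderate differences could go uncalled. The 10 macrophage markers with a value summed to 176 and 155, the highest being Lyz2 with a base mean of 50.3 in the authors' deposited table, and Cd68 was the only one called, higher at 1.03 (SE 0.39). The erythroid markers Hba-a1 and Hba-a2 were listed at 0. Mural markers, of pericytes and smooth muscle, summed to 18254 and 15947, and the most abundant were Acta2, Abcc9 and Cspg4. The sum rests chiefly on Acta2, with implied means of 10454 and 4999, and Abcc9, with 6332 and 7773. The other mural markers had base means from 60.9 for Tagln to 1260 for Cspg4. Whether the reads of Acta2 and Abcc9 come from mural cells was not tested. Of 9 mural markers 3 were higher (Cspg4, Myh11 and Tagln) and 1 lower, Acta2, which had -1.06 (SE 0.25) in the authors' deposited table, and under total-count scaling 5 were higher and 1 lower. Of all tested genes 16.6% were higher and 17.4% lower, or 40.4% and 6.6% under that scaling.

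Levels were compared between members as base mean per kb of the longest annotated transcript. On this scale Prdx2 stood highest (3987 normalized counts per kb), followed by Prdx3 (3503), Mgst3 (2682), Gpx4 (2616), Prdx1 (2371), Cat (2016) and Sod2 (1710). Of the 10 highest members 6 were lower with dnMKL1 and 0 higher on the authors' scaling, where under total-count scaling Prdx2 and Prdx6 lost the call and Prdx1 and Cat were called higher. Of the 8 members that rose at least 2-fold, Gpx3 stood at 1388 per kb and Ephx1 above the members' median of 299, with 463 per kb, while the others lay below it: 79.8 for Hmox1, 71.6 for Mgst1, 43.7 for Ptgr1, 29.2 for G6pdx, 22.4 for Sod3 and 15.2 for Osgin1. The same 10 genes led when the principal transcript was used, although Sod1 then stood at 881 per kb in place of 142. Neighbours in this order such as Mgst3 and Gpx4 differ by less than their spread between libraries, 14.3% and 11.5% as described for the spread plot. Of the 19 members at a base mean of 1000 or more, 3 were higher and 8 lower, and among the 33 tested members below it 15 were higher and 5 lower. Over all tested genes the shares were 13.7% higher and 42.1% lower at 1000 or more, and 17.2% and 13.0% below it. The summed implied means of all 53 members were 78927 normalized counts with GFP and 68959 with dnMKL1.

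The spread between libraries of a group was derived from each SE as a coefficient of variation (CV), on the assumption that it was the same in both groups. The members with the largest spread, among those with a base mean of 10 or more, were Gpx3 (49.9%), Osgin1 (42.3%), Ephx1 (41.1%), Mgst1 (35.9%) and Hmox1 (34.1%), all among those that rose. At the other end stood Prdx6 (6.79%), Prdx1 (7.45%) and Cat (7.51%). For the 46 members at a base mean of 100 or more the median was 11.7%, and over 8644 such genes it was 11.4%. Of these members 6 lay above 20.9%, the 90th percentile of those genes: Gpx3, Ephx1, Hmox1, Srxn1, Gstk1 and Nfe2l2. Gpx3 had an interval from 1.63-fold to 5.62-fold, whereas that of Ptgr1, with a CV of 15.2%, ran from 3.15-fold to 5.16-fold. For Nfe2l2 it was 21.1% and for Keap1 10.2%. Whether 1 library carried any of these rises cannot be read from the table.

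**Figure D3:**
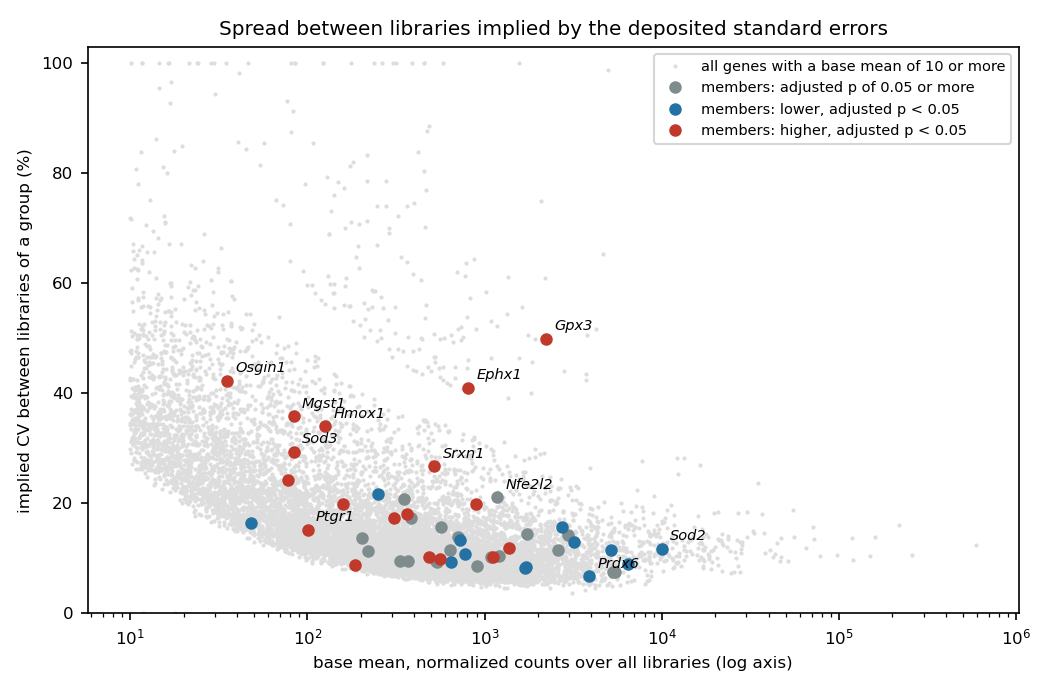
Each point is a gene, with its base mean in normalized counts on the horizontal log axis and the CV between libraries implied by the deposited SE on the vertical axis, in percent. Members are coloured by call over all genes in grey, 28 of which lie above 100% and are drawn there, and Gpx3 and Ephx1 stand above most genes of like level.

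Genes of the pathway outside the set were taken from lists made by function. Of 13 other regulators of NRF2, 3 were higher, 1 lower and 9 not called, with a median of 0.34, against 16.6% and 17.4% of all genes. Under total-count scaling 9 were higher and 0 lower, with a median of 0.63, against 40.4% and 6.6% of all genes. Sqstm1 (p62), an autophagy adaptor that binds KEAP1, went from an implied mean of 6154 normalized counts to 9555 (0.63, SE 0.17, in the authors' deposited table), and Dpp3, a peptidase that also binds KEAP1, had 0.53 (SE 0.07). Rbx1, a subunit of the ubiquitin ligase that KEAP1 recruits, had -0.32 (SE 0.08) in the authors' deposited table and -0.03 under total-count scaling, without a call. Of the small MAF partners, Mafk was the third gene called higher, at 0.65 (SE 0.22) in the authors' deposited table, named here because it completes the count and chosen after its value was seen.

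Of 16 other NRF2 targets, 13 had an adjusted p-value, 5 were higher and 2 lower, with a median of 0.43 over the tested genes, against 16.6% and 17.4% of all genes. Under total-count scaling 8 were higher and 1 lower, against 40.4% and 6.6%. The ferritin light chain Ftl1, which stores iron such as that released by heme oxygenase, went from 1065 normalized counts to 2416 (1.18, SE 0.15, in the authors' deposited table). Ugdh, which makes the glucuronate donor, had 0.84 (SE 0.12), and the fatty aldehyde dehydrogenase Aldh3a2 had 0.62 (SE 0.09) in the authors' deposited table. The other calls, named after their values were seen, were the biliverdin reductase Blvra (0.43) and the export pump Abcc5 (0.40), both higher in the authors' deposited table, and Trim16 (-0.77) and Fech (-0.34), both lower, Fech without a call under total-count scaling (-0.05). The cystine carrier Slc7a11 had a base mean of 1.27 in the authors' deposited table, too low to judge, and the heavy chain Fth1 had 0.04 (SE 0.08). Abcc2 and Gpx2 were listed at 0.

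Of 29 other glutathione enzymes, 24 had an adjusted p-value, 4 were higher and 5 lower, with a median of 0.00 over the tested genes, shares near the 16.6% and 17.4% of all genes. Under total-count scaling 8 were higher and 2 lower, against 40.4% and 6.6%. The 3 with the smallest p-values were glutaredoxins, which reduce mixed disulfides with glutathione, and all were lower: the authors' deposited table gave -0.69 (SE 0.10) for the mitochondrial Glrx5, -0.53 (SE 0.11) for the mitochondrial and nuclear Glrx2 and -0.53 (SE 0.10) for the cytosolic Glrx. Under total-count scaling Glrx5 and Glrx stayed lower and Glrx2 was not called (-0.24). The other calls, named after their values were seen, were Gstt2 (0.98), Gpx7 (0.53), Lancl1 (0.34) and Gpx8 (0.18), higher in the authors' deposited table, and Chac2 (-0.50) and Adh5 (-0.23), lower there and without a call under total-count scaling (-0.21 and 0.06).

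**Figure D4:**
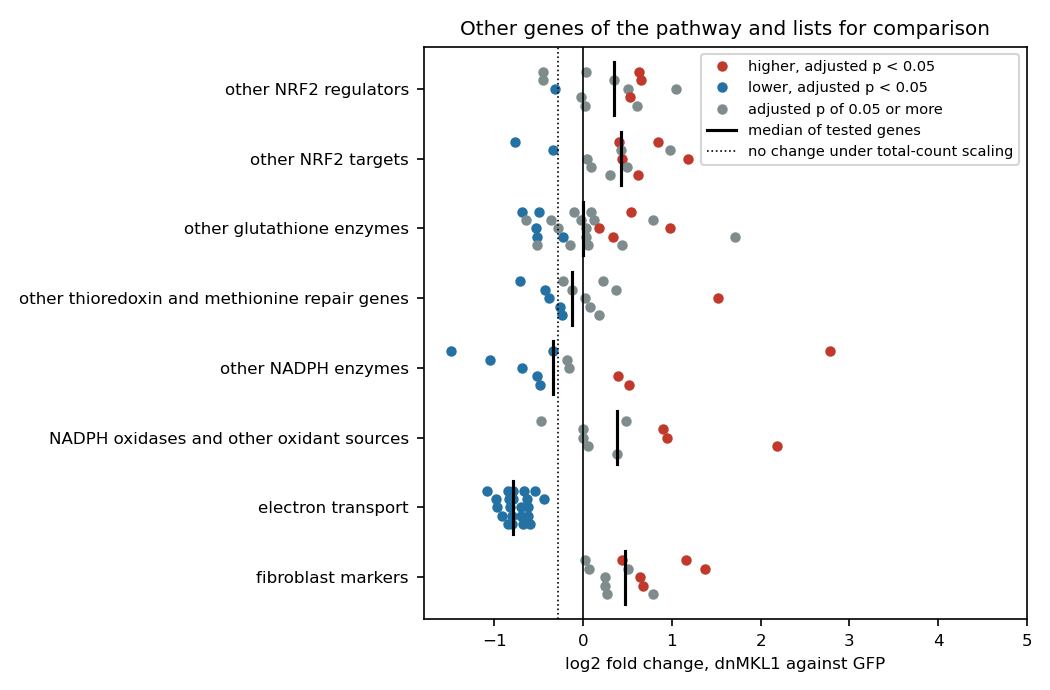
Each point is a tested gene outside the set, at its log2 fold change, dnMKL1 against GFP, with one row per list and the list's median as a bar. The 22 electron transport genes all lie below 0 on either scaling, whereas the other targets of NRF2 have a median of 0.43.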

How the data were processed

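RNA sequencing of 10 cardiomyocyte samples, 5 per group, was analysed from 1 table. Per the labels' protocols, cells were isolated by collagenase perfusion and fluorescence-activated sorting, 10 ng of RNA was amplified with a SMART-Seq kit over 8 PCR cycles, and 500 pg of cDNA entered Nextera XT. Per the submitters' processing notes, CASAVA 1.8, STAR 2.5.3a, featureCounts and Subread 1.5.2 were used on mm10. Which annotation was used and whether counting was stranded are not given in the sources used here, so reads of overlapping genes on opposite strands cannot be told apart.

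Per the file headers, the columns are base mean (deposited signal in normalized counts), log2 fold change and SE (deposited on the log2 scale), Wald statistic (a deposited score), and the deposited p-value with its adjusted p-value. That they come from DESeq2 was inferred from this layout, and the version is not given in the sources used here. Recomputing the Benjamini-Hochberg adjustment gave the deposited values within 1.44e-07. Implied group means take the base mean as the average of 2 equal groups. Library size factors came from the base means of genes seen once in a single library, and the CV was solved from SE, implied means and size factors. It carries the authors' sharing of information between genes. PCR reads without molecular identifiers are not independent, and depth bounds counting error only.

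Members, roles and lists were chosen with earlier results of these data known. Called genes, the regulators and the member of highest base mean in each role are named, and in other lists the 3 genes with the smallest p-values or, for markers, the most abundant 3. Transcript lengths, positions and 50-base sharing came from GENCODE M21, promoters from RefSeq. Python 3.11.15, pandas 2.3.3 and SciPy 1.17.1 were used, and the functions were tested on simulated data.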

Additional observations from a re-analysis of the deposited data

How the results depend on the processing

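The table bears no value per library, so the planned fits with a replicate block and without each replicate in turn were not run, and whether 1 library decides a value is unknown. No paired analysis was possible because values of single libraries, which carry the replicate numbers, are not used here. Against 18 higher and 13 lower members, requiring an absolute log2 fold change of 0.5 left 7 lower, and one of 1 left 8 higher and 0 lower. For the other pathway genes (19 higher, 19 lower), 0.5 left 9 lower, and 1 left 4 higher and 2 lower, since fewer genes can pass. Total-count scaling gave 31 higher and 8 lower members and 36 and 7 pathway genes, and with Mkl1 left out of the totals 32 and 7, and 36 and 6. It moved the members' median log2 fold change from 0.0049 to 0.29, or 0.30 without Mkl1, which is the shift itself. Other thresholds, base mean filters, adjustment over all p-values and median-centring kept these counts within 1.5 times, although adjustment over all p-values left 10 lower members.

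Both total-count scalings reversed 15 members to positive values, given first with and then without Mkl1 in the totals: Keap1 0.23 and 0.24, Pgd 0.27 and 0.28, Taldo1 0.092 and 0.10, Me1 0.14 and 0.15, Gsta4 0.13 and 0.14, Gstm4 0.21 and 0.22, Gstm5 0.21 and 0.22, Gstm7 0.093 and 0.10, Mgst3 0.024 and 0.033, Cbr1 0.29 and 0.30, Cat 0.19 and 0.20, Prdx1 0.28 and 0.29, Prdx4 0.24 and 0.25, Prdx6 0.018 and 0.028, and Gpx4 0.24 and 0.25. Of these, Taldo1 and Prdx6 had been called lower. Median-centring reversed 0 members. An adjusted p-value under 0.01 lost 4 members (Taldo1, Gstp1, Gstt1 and Mgst1).

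The median base mean per kb of the members was 299 normalized counts with the longest transcript and 193 with the union of exons, which is longer by construction. The principal transcript was chosen after seeing the data. The motif with 1 more base, an A after TGACNNNGC, was found in 3 of the 46 members (6.5%) and in 3.4% of all genes with a window. TGACNNNGC itself was found in 14 members (30.4%) and in 14.0% of those genes.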

Other observations

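Counts for enzymes outside the set that produce oxidants, repair oxidative damage or supply NADPH are given beside the 16.6% higher and 17.4% lower of all genes, and for total-count scaling beside 40.4% and 6.6%. Of 9 tested oxidant-producing genes 3 were higher and 0 lower on either scaling, and 3 had an unadjusted Wald p-value under 0.05 in the authors' table. The monoamine oxidases, which yield hydrogen peroxide at the outer mitochondrial membrane, both rose: Maoa went from an implied mean of 28.7 normalized counts to 130 (2.18, SE 0.37, in the authors' deposited table) and Maob from 523 to 975 (0.90, SE 0.14). Xdh, xanthine dehydrogenase, had 0.95 (SE 0.32) in the authors' deposited table. Nox4, the NADPH oxidase subunit known from cardiomyocytes, had a base mean of 5.73 in the authors' deposited table.

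Of 13 tested thioredoxin-related and methionine repair genes 1 was higher and 5 lower, and under total-count scaling 5 were higher and 2 lower. Sesn2, a stress-induced sestrin, rose from 119 to 341 normalized counts (1.52, SE 0.20, in the authors' deposited table), while the methionine sulfoxide reductases Msrb2 and Msrb3 had -0.72 (SE 0.12) and -0.42 (SE 0.06). The other genes called lower there, named after their values were seen, were Msra (-0.38), Txnl1 (-0.26) and Txnrd3 (-0.24), none of them called under total-count scaling. Of 11 tested NADPH enzymes beyond the set 3 were higher and 6 lower, and under total-count scaling 3 were higher and 2 lower, with the calls of Pgls, Idh1, Idh2 and Nnt lost. Mthfd2, of mitochondrial folate metabolism, went from 34.6 to 238 normalized counts (2.78, SE 0.28, in the authors' deposited table), Rpe, of the pentose phosphate pathway, had 0.52 (SE 0.09), and the mitochondrial malic enzyme Me3 had -1.05 (SE 0.15). Nadk was the other gene called higher (0.39 in the authors' deposited table). The calls of Maoa, Maob, Xdh, Sesn2, Msrb2, Msrb3, Mthfd2, Rpe, Me3 and Nadk were kept under total-count scaling, Msrb3 at -0.14 and lost when Mkl1 was left out of the totals.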
